A study of Mus musculus with 12 samples.

Results

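The genes described here are 102 transcripts of MC3T3-E1 cells, an established line of bone-forming precursor cells from mouse calvaria, that stood lower after TNFa and also lower after BMP4 than in untreated cells. They were chosen from the deposited table of log2 expression values by 4 conditions. The mean log2 value over the 12 libraries had to be at least 6, the mean difference from untreated had to be -0.25 or less under TNFa and under BMP4, and both differences had to be below 0 within each of 2 labelled batches. Rn45s and symbols starting with Trim, Slc or Col were left out. Of 25124 entries in the table, 10149 reached the level and had an eligible symbol; 505 of these met the TNFa difference, 495 met the BMP4 difference, and 102 met every condition. The differences of each single factor from untreated therefore chose the genes and are given as descriptions without a test.

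The study held 4 groups of 3 polyA RNA-seq libraries each. Untreated cells received neither factor, TNFa cells received 10 ng/mL TNFa, BMP4 cells received 10 ng/mL BMP4, and TNFa+BMP4 cells received both. All groups were first brought to 2.5% serum and carry no genetic change by the labels; TNFa was added 30 min ahead of BMP4, BMP4 lasted 3 h, and the labels leave the length of the TNFa exposure unsettled between the protocol and a value of 3 h. By the labels, replicate 1 of every group was in batch 1, and replicates 2 and 3 were in batch 2. The cells are 1 line, nothing says that replicates were separate cultures, and the p-values therefore measure only the spread between these samples. As a check of the label, 11 of 15 osteoblast-lineage markers reached a mean of 4 on the log2 scale (Col1a1 17.3, Runx2 10.3). Bglap, Ibsp, Alpl and Dmp1, also on that list, lay between -1.23 and 1.05. The same level was reached by 3 of 9 macrophage and leukocyte markers (Cd14 5.91, Lyz2 4.71 and Cd68 4.49), while Ptprc lay at -1.97 and Adgre1 and Cd3e were listed at 0. Of 5 chondrocyte markers 3 reached it (Col2a1 15.0, Sox9 12.1 and Comp 4.01), while Matn1 lay at -1.73 and Acan was listed at 0. Col2a1 and Sox9 thus stood above Runx2, as did Acta2 (13.8), the 1 of 6 muscle markers at the level. It was also reached by 1 of 5 endothelial (Pecam1), 1 of 4 epithelial (Cdh1) and 0 of 5 adipocyte markers. Tag totals ran from 13737313.5 to 15511103.5 in 11 libraries, and TNFa+BMP4 replicate 2 had 20579256.5.

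TNFa is an inflammatory cytokine that acts through NF-kB factors such as p65, and BMP4 is a bone morphogenetic protein that acts through receptor-activated Smads and Smad4. Both pathways are best known for switching genes on, and in osteoblasts BMP signalling drives differentiation while TNFa restrains it. The level of a polyA transcript reflects its synthesis and its decay together, and these libraries measure only the level.

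Each of the 102 genes lay below the untreated mean of its own batch in each of the 9 treated libraries. For the single factors the rule fixed this in part. The rule also favoured high values in the shared untreated libraries, which pushed the TNFa+BMP4 differences from untreated downward too. This count is therefore a description without a test, and no share over all genes is given for it. In bulk RNA, fewer expressing cells and less RNA per cell cannot be told apart. The median gene lay at -0.40, -0.32 and -0.30 relative to untreated in TNFa replicates 1 to 3, at -0.44, -0.34 and -0.32 in BMP4 replicates 1 to 3, and at -0.78, -0.58 and -0.57 in TNFa+BMP4 replicates 1 to 3. The median over all 11765 tested genes stayed between -0.01 and 0.01 in the same libraries. Over groups, the median difference from untreated was -0.33 under TNFa (range -0.82 to -0.25), -0.34 under BMP4 (range -0.86 to -0.25) and -0.67 under TNFa+BMP4 (range -1.33 to -0.12). The TNFa difference was the larger in 46 genes and the BMP4 difference in 56. The replicate 1 libraries of batch 1 lay farther from untreated than the replicates of batch 2, in each treated group. The spread of all tested genes was also wider there. Under TNFa+BMP4 their quartiles were -0.18 and 0.17 in replicate 1, -0.11 and 0.11 in replicate 2, and -0.11 and 0.12 in replicate 3. The untreated reference of batch 1 was replicate 1 alone.

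**Figure D1:**
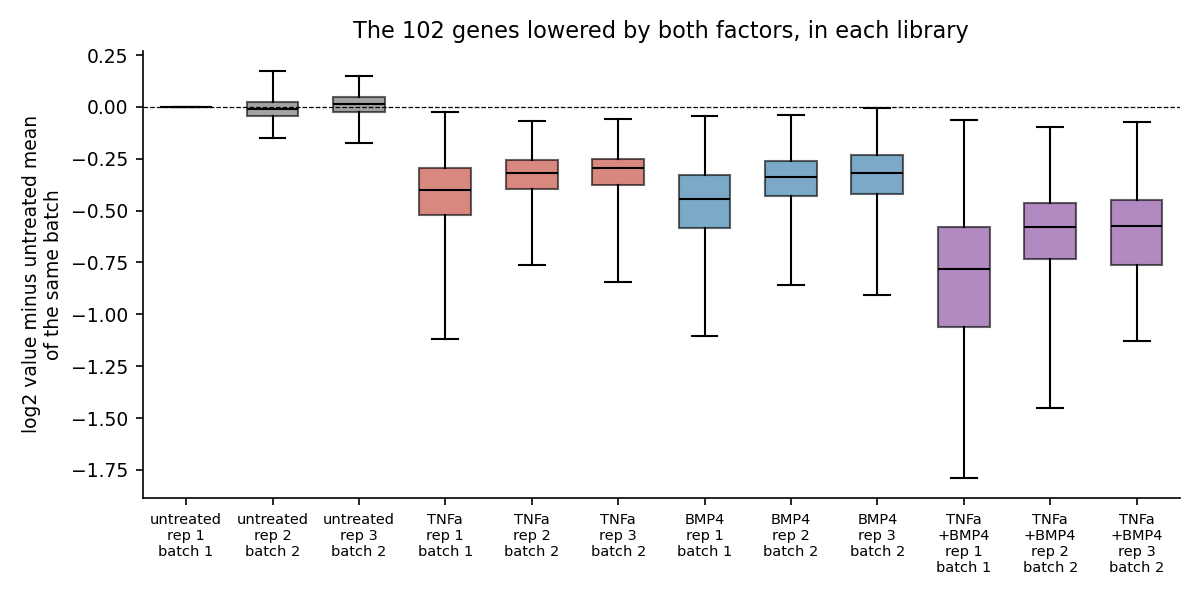
Difference of the 102 genes from the untreated mean of the same batch, in log2 units, for each of the 12 libraries; boxes span the quartiles, the line is the median and whiskers reach the extremes. The medians lie between -0.44 and -0.30 in libraries with a single factor and between -0.78 and -0.57 in libraries with both factors.

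The tested question was whether the genes stood lower still when the second factor was present, since the TNFa+BMP4 libraries entered the choice only through the mean level. The choice favours low values in the single-factor libraries, which moves these differences upward by construction, so lower calls run against that bias. The rule also required a fall under each factor alone, so lower values would follow wherever the single-factor differences add. The shares over all tested genes below include genes without such falls. Adding BMP4 to TNFa gave a median difference of -0.31 over the 102 genes (range -0.71 to 0.17), with 98 of 102 below 0, against a median of 0.00 over all tested genes. By limma with Benjamini-Hochberg adjustment over 11765 genes, 60 of the 102 were lower in TNFa+BMP4 than in TNFa at an adjusted p under 0.05, where 6.2% of all tested genes were lower. Adding TNFa to BMP4 gave a median of -0.28 (range -1.0 to 0.15), with 94 of 102 below 0, against -0.01 over all tested genes. Here 58 of the 102 were lower, where 7.41% of all tested genes were lower. No gene of the 102 was higher in either comparison, at the adjusted threshold, at an unadjusted p under 0.05, or by the adjusted p of the authors' deposited table; across all tested genes 5.47% and 8.78% were higher.

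Of the 102 genes, 45 were lower than TNFa and also lower than BMP4, a result found for 1.27% of all tested genes. A further 15 were lower than TNFa alone, 13 were lower than BMP4 alone, and 29 passed neither test. The 2 comparisons share the TNFa+BMP4 libraries, so their calls are not independent. Without regard to the model, every TNFa+BMP4 library lay below every TNFa library of its batch in 83 genes (20.6% of all tested genes), below every BMP4 library in 77 (20.0%) and below both in 73 (6.73%). Within batch 1 the medians were -0.38 against TNFa and -0.30 against BMP4, and within batch 2 both were -0.26. In each comparison 88 of 102 genes were below 0 in both batches, a count given without its share over all genes. By the fit over both batches, 5799 of 11765 tested genes were below 0 against TNFa and 6122 against BMP4.

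These counts rest on fitting the batch: without a batch term only 6 and 8 of the 102 genes were lower than TNFa and than BMP4. Lower calls fell over all genes too, to 39 and 82 of 11765 tested genes without that term. When each library was left out in turn, 44 to 64 genes were lower than TNFa and 38 to 63 were lower than BMP4; the count of 38 came without TNFa+BMP4 replicate 1. The call held in all 12 of these fits for 40 of the 60 genes and 33 of the 58, and for 22 of the 45 in both tests. Erbb3, Notch1, Txnip, Pik3ip1, Akap12, Ehbp1, Faah, Nfia and Cavin2 are among the 22. The counts from leaving out libraries are given without their shares over all genes. For genes described below whose call was lost, the library and the adjusted p without it are given beside the value.

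**Figure D2:**
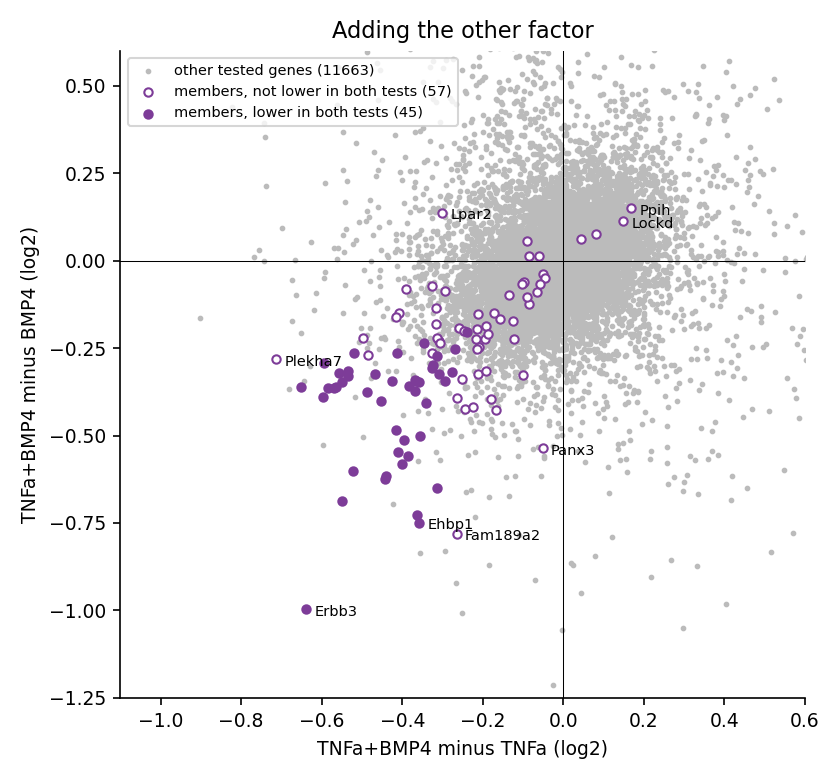
Difference of TNFa+BMP4 from TNFa (horizontal axis) against its difference from BMP4 (vertical axis), both log2, for the 102 genes and the other 11663 tested genes; 323 of the others lie outside the plotted range. The 45 genes lower in both tests lie at the lower left, and none of the 102 was called higher in either test.

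Among receptors and secreted signals, 5 of 10 genes were lower than TNFa and 4 of 10 lower than BMP4. Erbb3 is the receptor that binds neuregulins and signals through a partner kinase. On the deposited log2 scale it showed the most negative difference of TNFa+BMP4 from untreated of all 102 genes, -1.33. Erbb3 (NM_010153, mm10 chr10:128567523-128589635, minus strand) stood at 9.48, 9.46 and 9.51 in untreated replicates 1 to 3, at 8.36, 8.95 and 9.05 under TNFa, at 9.30, 9.09 and 9.05 under BMP4, and at 8.07, 8.03 and 8.35 under TNFa+BMP4. All TNFa+BMP4 libraries lay below every library of the other groups. The difference was -0.64 ± 0.12 (SE) from TNFa (adjusted p = 0.00101) and -1.0 ± 0.12 from BMP4 (adjusted p = 2.44e-06). In the authors' deposited table the same differences were -0.80 and -1.22. There the TNFa+BMP4 fold change from untreated was -1.61 for Erbb3. It was more negative for Plekha7 (-1.68), Fam189a2 (-1.67), Carns1 (-1.65) and Panx3 (-1.64), so the rank of Erbb3 depends on the scale.

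Notch1, a receptor read out by neighbouring cells' Delta and Jagged ligands, followed the same order of groups. Its values were 10.25, 10.45 and 10.54 in untreated cells, 9.75, 10.00 and 10.07 under TNFa, 10.06, 10.07 and 10.23 under BMP4, and 9.07, 9.72 and 9.70 under both factors. Within each batch the TNFa+BMP4 libraries were the lowest, at -0.44 ± 0.08 from TNFa (adjusted p = 9.13e-04) and -0.62 ± 0.08 from BMP4 (adjusted p = 7.86e-06). Lrrtm2, a synaptic adhesion protein gene, was lower than BMP4, at -0.56 ± 0.11 (adjusted p = 9.11e-04) and lower than TNFa, at -0.39 ± 0.11 (adjusted p = 0.0256). The latter call was lost without TNFa replicate 2 (adjusted p = 0.0728) or 3 (0.12), or TNFa+BMP4 replicate 1 (0.097) or 2 (0.074).

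Chrd encodes chordin, a secreted antagonist that binds BMPs. Chrd stood at 8.65, 8.15 and 8.12 in untreated cells, 8.34, 7.74 and 7.93 under TNFa, 8.38, 7.86 and 7.88 under BMP4, and 8.12, 7.58 and 7.68 under both. It was lower than BMP4, at -0.25 ± 0.07 (adjusted p = 0.0212), a call lost without BMP4 replicate 1 (0.0595) or 3 (0.063) or TNFa+BMP4 replicate 1 (0.0766) or 2 (0.0838), and its difference from TNFa was -0.21 ± 0.07 (adjusted p = 0.0655). Plxna3, a semaphorin receptor, was lower than TNFa, at -0.32 ± 0.07 (adjusted p = 0.00545) with -0.14 ± 0.07 against BMP4 (adjusted p = 0.226). Thbd, the thrombin receptor thrombomodulin, took the other course: TNFa+BMP4 libraries at 8.80, 9.52 and 9.47 overlapped those with BMP4 (8.57, 9.42 and 9.64), and its differences were -0.09 ± 0.07 from TNFa and 0.05 ± 0.07 from BMP4, neither past the threshold. Vegfd, a lymphatic growth factor gene, gave -0.08 ± 0.08 and 0.01 ± 0.08, also short of it. Lpar2, a lysophosphatidic acid receptor gene, lay at 5.81, 6.01 and 5.78 under BMP4 and at 5.56, 6.11 and 6.34 under both, a difference of 0.14 ± 0.10 (adjusted p = 0.44) that reached 0.33 (adjusted p = 0.0239) with batch 2 alone.

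**Figure D3:**
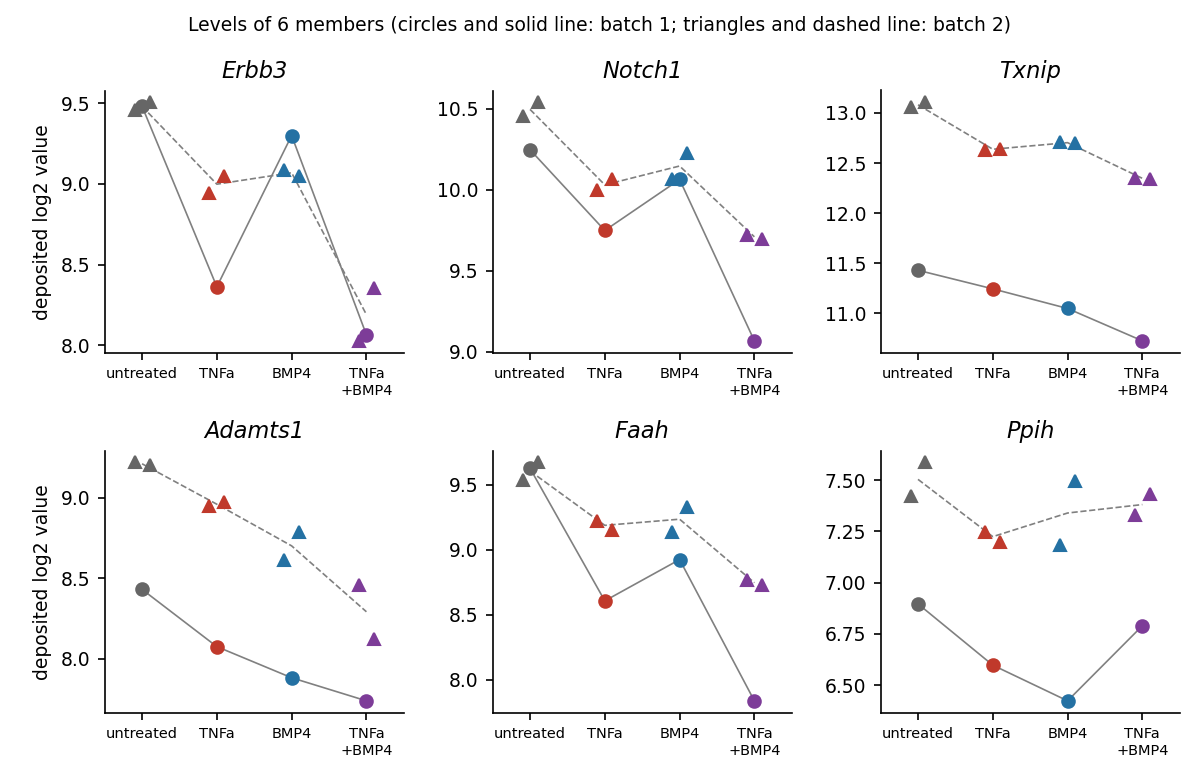
Deposited log2 values (vertical axes) of Erbb3, Notch1, Txnip, Adamts1, Faah and Ppih in each of the 12 libraries, by group (horizontal axes); circles are batch 1, triangles batch 2, and the solid and dashed lines join their group means. For Erbb3 all TNFa+BMP4 libraries (8.03 to 8.35) lie below the lowest TNFa library of 8.36, and for Txnip the batches lie farther apart than the groups.

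All 3 ADAMTS proteases in the set, which cut proteoglycans and other matrix proteins outside the cell, were lower than each single factor. Adamts5, an aggrecan-cleaving enzyme, stood at 9.54, 11.00 and 10.95 in untreated cells, 9.14, 10.68 and 10.59 under TNFa, 9.19, 10.38 and 10.51 under BMP4, and 9.07, 10.15 and 10.16 under both. Its difference was -0.35 ± 0.07 from TNFa (adjusted p = 0.00254) and -0.24 ± 0.07 from BMP4 (adjusted p = 0.0264). Adamts1, which lies next to it on chromosome 16 on the same strand, gave -0.56 ± 0.09 (adjusted p = 1.74e-04) and -0.32 ± 0.09 (adjusted p = 0.0132), and Adamts7 on chromosome 9 gave -0.37 ± 0.10 in both comparisons (adjusted p = 0.0155 and 0.00939). Adamts1 spans chr16:85793828-85803113 and Adamts5 chr16:85858157-85901125.

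Several of these protease calls depended on 1 library. Against BMP4, the adjusted p of Adamts5 was 0.088 and 0.104 without BMP4 replicates 1 and 3 and 0.132 and 0.124 without TNFa+BMP4 replicates 2 and 3, that of Adamts1 was 0.0839 without BMP4 replicate 3 and 0.111 without TNFa+BMP4 replicate 3, and that of Adamts7 was 0.0781 and 0.0688 without TNFa+BMP4 replicates 1 and 3. Against TNFa, Adamts7 reached 0.0998 without TNFa replicate 3 and 0.11 and 0.0934 without TNFa+BMP4 replicates 1 and 3. The Adamts1 and Adamts5 calls against TNFa held in all 12 of these fits. The adjusted p of Adamts1 against BMP4 in the authors' deposited table was 0.0548.

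Among intracellular signalling adaptors and regulators, 10 of 15 genes were lower than TNFa, 12 lower than BMP4 and 9 lower than both. Txnip, which binds thioredoxin and restrains glucose uptake, and Pik3ip1, a membrane inhibitor of PI3-kinase, belong to the FoxO-type growth-restraint genes. Their promoter windows are printed from RefSeq (GRCm38.p6), 250 bases before to 50 bases after the transcript start, because both are on the FoxO-type list and were lower in both tests; capitals mark matches, on either strand, to CCAAT, the forkhead motif TGTTTAC or the GC-rich Smad motif GGCGCC. The windows are chr3:96557707-96558006 on the plus strand and chr11:3330481-3330780 on the plus strand.
Txnip: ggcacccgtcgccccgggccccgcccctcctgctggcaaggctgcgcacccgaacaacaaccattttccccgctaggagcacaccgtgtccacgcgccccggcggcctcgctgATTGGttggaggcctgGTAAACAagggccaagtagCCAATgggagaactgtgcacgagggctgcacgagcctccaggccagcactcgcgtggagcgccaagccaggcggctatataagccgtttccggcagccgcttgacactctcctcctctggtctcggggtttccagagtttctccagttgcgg
Pik3ip1: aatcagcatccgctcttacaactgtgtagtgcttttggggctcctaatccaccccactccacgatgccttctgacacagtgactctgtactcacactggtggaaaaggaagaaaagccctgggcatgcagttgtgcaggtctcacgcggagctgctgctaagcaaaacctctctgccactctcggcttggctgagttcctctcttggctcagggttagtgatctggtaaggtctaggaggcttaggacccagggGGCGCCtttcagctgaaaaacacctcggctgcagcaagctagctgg
The Txnip window held a CCAAT match on each strand and 1 forkhead match. The Pik3ip1 window held 1 GGCGCC match and no forkhead or CCAAT match.

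Txnip stood at 11.43, 13.06 and 13.10 in untreated cells, 11.25, 12.63 and 12.64 under TNFa, 11.05, 12.71 and 12.70 under BMP4, and 10.73, 12.35 and 12.34 under both. Batch 1 lay more than 1 log2 unit below batch 2 in every group, and within each batch the groups did not overlap between both factors and either factor. The difference was -0.37 ± 0.05 from TNFa (adjusted p = 6.87e-05) and -0.34 ± 0.05 from BMP4 (adjusted p = 5.74e-05). Gm15441, a noncoding RNA gene on the opposite strand that overlaps Txnip, gave -0.38 ± 0.06 and -0.36 ± 0.06; the counting is not stated to use strand, so reads of the 2 genes cannot be told apart. Pik3ip1 stood at 8.98, 8.89 and 8.80 in untreated cells, 8.42, 8.63 and 8.59 under TNFa, 8.39, 8.65 and 8.52 under BMP4, and 8.02, 8.22 and 8.29 under both. It gave -0.37 ± 0.08 from TNFa (adjusted p = 0.00366) and -0.34 ± 0.08 from BMP4 (adjusted p = 0.00404). Deptor, an inhibitor of mTOR, was lower than BMP4, at -0.33 ± 0.09 (adjusted p = 0.0179, 0.103 without BMP4 replicate 2 and 0.0678 without TNFa+BMP4 replicate 3), and its difference from TNFa was -0.10 ± 0.09.

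Akap12, a scaffold that holds protein kinase A at the membrane, showed a large TNFa difference. Its values were 9.51, 10.03 and 10.07 in untreated cells, 8.92, 9.34 and 9.37 under TNFa, 9.14, 9.78 and 9.81 under BMP4, and 8.34, 9.09 and 9.11 under both. TNFa+BMP4 differed by -0.36 ± 0.06 from TNFa (adjusted p = 6.93e-04) and -0.73 ± 0.06 from BMP4 (adjusted p = 3.81e-08). Prkar2b, a regulatory subunit of protein kinase A, gave -0.55 ± 0.09 (adjusted p = 3.27e-04) and -0.35 ± 0.09 (adjusted p = 0.0108); against BMP4 its adjusted p was 0.0539 without BMP4 replicate 3 and 0.119 and 0.0502 without TNFa+BMP4 replicates 1 and 3. Pid1, an adaptor that dampens insulin signalling, gave -0.49 ± 0.07 (adjusted p = 1e-04) and -0.38 ± 0.07 (adjusted p = 7.27e-04). Swap70, a guanine exchange factor for Rac, gave -0.45 ± 0.07 and -0.40 ± 0.07, and Dixdc1, a Wnt pathway protein with a DIX domain, gave -0.44 ± 0.10 and -0.62 ± 0.10. The Dixdc1 call against TNFa was lost without TNFa replicate 1 (adjusted p = 0.0502) or TNFa+BMP4 replicate 1 (0.0675).

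The cytoskeleton, junction, caveola and small-GTPase genes were the largest group by role, with 14 of 21 lower than TNFa, 12 lower than BMP4 and 11 lower than both. Plekha7, an adherens junction protein, had among the largest BMP4 differences. Plekha7 stood at 7.94, 7.53 and 7.53 in untreated cells, 7.36, 7.31 and 7.25 under TNFa, 6.89, 6.90 and 6.84 under BMP4, and 6.36, 6.75 and 6.67 under both. It was lower than TNFa, at -0.71 ± 0.11 (adjusted p = 1.28e-04), and its difference from BMP4 of -0.28 ± 0.11 missed the threshold (adjusted p = 0.0825). Lmo7, a LIM-domain protein of junctions and nuclei, leaned to TNFa instead, with 9.79, 9.44 and 9.45 in untreated cells, 9.16, 8.72 and 8.69 under TNFa, 9.55, 8.89 and 9.15 under BMP4, and 8.73, 8.34 and 8.57 under both. It was lower than BMP4, at -0.65 ± 0.08 (adjusted p = 2.39e-06) and lower than TNFa, at -0.31 ± 0.08 (adjusted p = 0.0106), the latter lost without TNFa replicate 1 (0.062) or TNFa+BMP4 replicate 1 (0.0762) or 2 (0.0582).

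The caveolar genes diverged. Cavin2, a coat protein of caveolae, stood at 10.97, 10.67 and 10.69 in untreated cells, 10.59, 10.33 and 10.36 under TNFa, 10.22, 10.20 and 10.24 under BMP4, and 9.89, 9.90 and 9.90 under both, with differences of -0.53 ± 0.06 (adjusted p = 4.75e-06) and -0.33 ± 0.06 (adjusted p = 5.85e-04). Cav2, a caveolin, was at 10.14, 10.11 and 10.22 under both factors, overlapping TNFa at 10.40, 10.07 and 10.13, and gave -0.05 ± 0.08 in each comparison. The membrane protein genes Tspan15, a partner of the ADAM10 protease, and Stom, stomatin, also stood in this group. Tspan15 gave -0.42 ± 0.05 (adjusted p = 3.91e-06) and -0.34 ± 0.05 (adjusted p = 2.12e-05). Among regulators of actin and small GTPases, Mtss1 gave -0.53 ± 0.07 and -0.32 ± 0.07, and Ripor2 gave -0.60 ± 0.08 and -0.39 ± 0.08, past the threshold in both tests. Ctnnal1, an alpha-catenin relative, gave -0.36 ± 0.07 and -0.50 ± 0.07, and Arhgap27, a GTPase-activating protein, gave -0.22 ± 0.09 and -0.20 ± 0.09, short of the threshold. Rnd2, a small GTPase, gave 0.04 ± 0.09 and 0.06 ± 0.09.

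Of 6 vesicle traffic genes, 1 was lower than TNFa and 3 lower than BMP4. Ehbp1, which links endocytic membranes to actin, was the gene lower than both. Ehbp1 stood at 10.58, 10.74 and 10.58 in untreated cells, 9.82, 9.97 and 9.82 under TNFa, 10.25, 10.30 and 10.24 under BMP4, and 9.39, 9.60 and 9.54 under both; the 4 groups did not overlap. Its differences were -0.36 ± 0.06 from TNFa (adjusted p = 3.41e-04) and -0.75 ± 0.06 from BMP4 (adjusted p = 7.34e-09). Hid1, a protein of secretory granule formation, was lower than BMP4, at -0.39 ± 0.09 (adjusted p = 0.00346) and gave -0.26 ± 0.09 against TNFa (adjusted p = 0.0592). Rab27b, a GTPase of secretory vesicles, was lower than BMP4, at -0.33 ± 0.09 (adjusted p = 0.0131; 0.0648 without BMP4 replicate 2, and 0.0606 and 0.0658 without TNFa+BMP4 replicates 1 and 3). Rab3d, its relative in regulated secretion, gave -0.06 ± 0.09 and 0.01 ± 0.09.

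Among 15 metabolic and lysosomal genes, 10 were lower than TNFa, 7 lower than BMP4 and 7 lower than both. Faah, which breaks down the endocannabinoid anandamide, stood at 9.62, 9.54 and 9.67 in untreated cells, 8.61, 9.22 and 9.15 under TNFa, 8.92, 9.14 and 9.33 under BMP4, and 7.84, 8.76 and 8.73 under both. The lowest value in each batch belonged to TNFa+BMP4, with differences of -0.55 ± 0.12 (adjusted p = 0.00406) and -0.69 ± 0.12 (adjusted p = 2.68e-04); limma with robust moderation raised the former to an adjusted p of 0.0655. Its window in the RefSeq table, chr4:116017875-116018174 on the minus strand, is printed for comparison with Pik3ip1, with its GGCGCC match in capitals.
Faah: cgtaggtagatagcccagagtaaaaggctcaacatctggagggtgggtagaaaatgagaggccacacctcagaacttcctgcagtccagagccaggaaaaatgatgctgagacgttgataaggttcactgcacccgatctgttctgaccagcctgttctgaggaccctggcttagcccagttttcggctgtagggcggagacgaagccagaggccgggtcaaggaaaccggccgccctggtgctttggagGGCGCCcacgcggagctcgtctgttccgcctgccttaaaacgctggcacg
The match lay at the transcript start in Faah and just past it in Pik3ip1. GGCGCC was in 21.3% of the windows of the set and in 23.6% of those of other genes at the level. The 2 windows therefore do not show a feature particular to the set.

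Carns1, the enzyme that joins beta-alanine and histidine to carnosine, had the most negative BMP4 difference of the set on the deposited log2 scale, -0.86. By the authors' deposited fold changes its BMP4 difference was -1.13. Those of Lpar2 (-1.42), March9 (-1.30), Plekha7 (-1.19) and Rassf7 (-1.15) were more negative. Carns1 stood at 9.07, 8.26 and 8.10 in untreated cells, 8.36, 7.64 and 7.73 under TNFa, 7.97, 7.32 and 7.57 under BMP4, and 7.40, 7.22 and 7.16 under both. It was lower than TNFa, at -0.65 ± 0.11 (adjusted p = 3.31e-04) and lower than BMP4, at -0.36 ± 0.11 (adjusted p = 0.0248), the latter reaching 0.133 without BMP4 replicate 3 and 0.269 without TNFa+BMP4 replicate 1. Bcat2, the mitochondrial branched-chain aminotransferase, gave -0.59 ± 0.09 from TNFa (adjusted p = 2.21e-04) and -0.29 ± 0.09 from BMP4 (adjusted p = 0.0378). The Bcat2 call against BMP4 was lost without TNFa replicate 2 (0.0515), BMP4 replicate 2 (0.164) or 3 (0.0688) or TNFa+BMP4 replicate 1 (0.331), and with a replicate block (0.0541). Dhcr7, the last enzyme of cholesterol synthesis, gave -0.58 ± 0.09 (adjusted p = 1.39e-04) and -0.36 ± 0.09 (adjusted p = 0.0062; 0.0815 without TNFa+BMP4 replicate 1).

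Myorg, a glycosidase, was lower in both tests at -0.41 ± 0.09 (adjusted p = 0.00401) and -0.55 ± 0.09 (adjusted p = 1.29e-04). Adh7, an alcohol dehydrogenase active on retinol, gave -0.32 ± 0.07 (adjusted p = 0.0035; 0.0521 without TNFa replicate 1) and -0.30 ± 0.07 (adjusted p = 0.00406). Acadm, the medium-chain acyl-CoA dehydrogenase of fatty acid oxidation, was lower than TNFa, at -0.33 ± 0.09 (adjusted p = 0.022), a call lost without TNFa replicate 1 (0.132) or 2 (0.0666) or TNFa+BMP4 replicate 1 (0.131) or 3 (0.0574), and gave -0.26 ± 0.09 against BMP4 (adjusted p = 0.0506). Idh1, cytosolic isocitrate dehydrogenase, gave -0.12 ± 0.06 and -0.17 ± 0.06, short of the threshold. Mettl7a1 gave -0.47 ± 0.10 and -0.32 ± 0.10, but it has near-identical neighbouring copies among which reads could be split, so its values are uncertain. Its call against BMP4 was lost without BMP4 replicate 2 (adjusted p = 0.169) or 3 (0.1) or TNFa+BMP4 replicate 1 (0.183) or 3 (0.0685).

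Of 14 transcription and nuclear genes, 7 were lower than TNFa, 8 lower than BMP4 and 5 lower than both. Nfia, a nuclear factor I protein, stood at 9.49, 9.68 and 9.57 in untreated cells, 8.75, 9.37 and 9.30 under TNFa, 9.13, 9.32 and 9.22 under BMP4, and 8.25, 8.81 and 8.80 under both. TNFa+BMP4 libraries were the lowest in each batch, at -0.52 ± 0.09 from TNFa (adjusted p = 3.41e-04) and -0.60 ± 0.09 from BMP4 (adjusted p = 3e-05). Zfp395, a zinc-finger protein, gave -0.40 ± 0.08 (adjusted p = 0.00152) and -0.58 ± 0.08 (adjusted p = 1.19e-05). Bcl9l, a co-activator of beta-catenin, gave -0.31 ± 0.07 and -0.33 ± 0.07, and Glis3, a Krüppel-like zinc-finger factor, gave -0.40 ± 0.10 and -0.51 ± 0.10. The Glis3 call against TNFa was lost without TNFa replicate 1 (adjusted p = 0.0831) or 3 (0.0602) or TNFa+BMP4 replicate 1 (0.0839). Jade1, a scaffold of histone acetyltransferases, was lower than TNFa, at -0.50 ± 0.08 (adjusted p = 2.45e-04) and gave -0.22 ± 0.08 against BMP4 (adjusted p = 0.0665).

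The nuclear genes Ppih, Med31 and Epas1 did not pass either test, nor did the noncoding gene Lockd. Ppih, a spliceosomal peptidyl-prolyl isomerase, stood at 6.90, 7.42 and 7.59 in untreated cells, 6.60, 7.25 and 7.20 under TNFa, 6.42, 7.18 and 7.50 under BMP4, and 6.79, 7.33 and 7.43 under both. Its values under both factors lay above every TNFa library of the same batch, with differences of 0.17 ± 0.09 and 0.15 ± 0.09 that missed the threshold (adjusted p = 0.28 and 0.329). The noncoding RNA gene Lockd gave 0.15 ± 0.10 and 0.11 ± 0.10, and Med31, a Mediator subunit, gave 0.08 ± 0.08 in each comparison. Epas1, the hypoxia factor HIF-2alpha, gave -0.19 ± 0.09 in each comparison, and its TNFa+BMP4 libraries lay below every single-factor library of the same batch.

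Of 5 ubiquitin ligase genes, 4 were lower than TNFa and 3 lower than BMP4. Fbxl20, an F-box protein, stood at 11.83, 11.19 and 11.08 in untreated cells, 11.41, 10.74 and 10.81 under TNFa, 11.48, 10.83 and 10.85 under BMP4, and 10.87, 10.52 and 10.55 under both, with differences of -0.34 ± 0.06 (adjusted p = 9.84e-04) and -0.41 ± 0.06 (adjusted p = 7.62e-05). Fbxo10, another F-box protein, gave -0.24 ± 0.06 (adjusted p = 0.0152) and -0.21 ± 0.06 (adjusted p = 0.0277). The Fbxo10 calls were lost against TNFa without TNFa replicate 2 (0.0786) or TNFa+BMP4 replicate 3 (0.0601), and against BMP4 without BMP4 replicate 3 (0.129) or TNFa+BMP4 replicate 1 (0.0532), 2 (0.0621) or 3 (0.0927). Asb1, a SOCS-box adaptor, gave -0.10 ± 0.08 and -0.06 ± 0.08.

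Of 4 channel and transporter genes, 2 were lower in each comparison. Panx3, a channel of osteoblasts and chondrocytes, lay at 6.25, 6.74 and 6.67 in untreated cells, 5.54, 6.03 and 5.87 under TNFa, 5.96, 6.50 and 6.43 under BMP4, and 5.75, 5.71 and 5.83 under both. It was lower than BMP4, at -0.54 ± 0.09 (adjusted p = 3.01e-04), whereas its values with and without BMP4 overlapped among TNFa-treated libraries (-0.05 ± 0.09). Fam189a2, placed among the other genes, showed the same order of groups. It stood at 7.86, 7.64 and 7.75 in untreated cells and at 6.86, 6.93 and 7.02 under TNFa. Its values were 7.47, 7.43 and 7.46 under BMP4, and 6.50, 6.76 and 6.76 under both. It was lower than BMP4, at -0.78 ± 0.09 (adjusted p = 9.55e-07) and gave -0.26 ± 0.09 against TNFa (adjusted p = 0.0525). Of the 9 noncoding and other genes, 4 were lower in each comparison and 2 in both.

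Other ways of testing ended some of the calls above. With the authors' deposited adjusted p, those of Chrd (0.137) and Deptor (0.0676) against BMP4 and of Fbxo10 against TNFa (0.0615) and BMP4 (0.162) missed the threshold. With batch 2 alone, so did Carns1 (0.0725) and Chrd (0.0779) against BMP4 and Glis3 against TNFa (0.061). With no minimum level, adjustment over 17701 genes lost Acadm (0.0823), Adamts7 (0.0584) and Lrrtm2 (0.0844) against TNFa and Adamts5 (0.0813), Bcat2 (0.106), Carns1 (0.0807) and Mettl7a1 (0.101) against BMP4. Without a mean-variance trend in limma, Adamts5 (0.059), Bcat2 (0.0613) and Mettl7a1 (0.058) against BMP4 were lost, and robust moderation lost Mettl7a1 (0.0648).

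**Figure D4:**
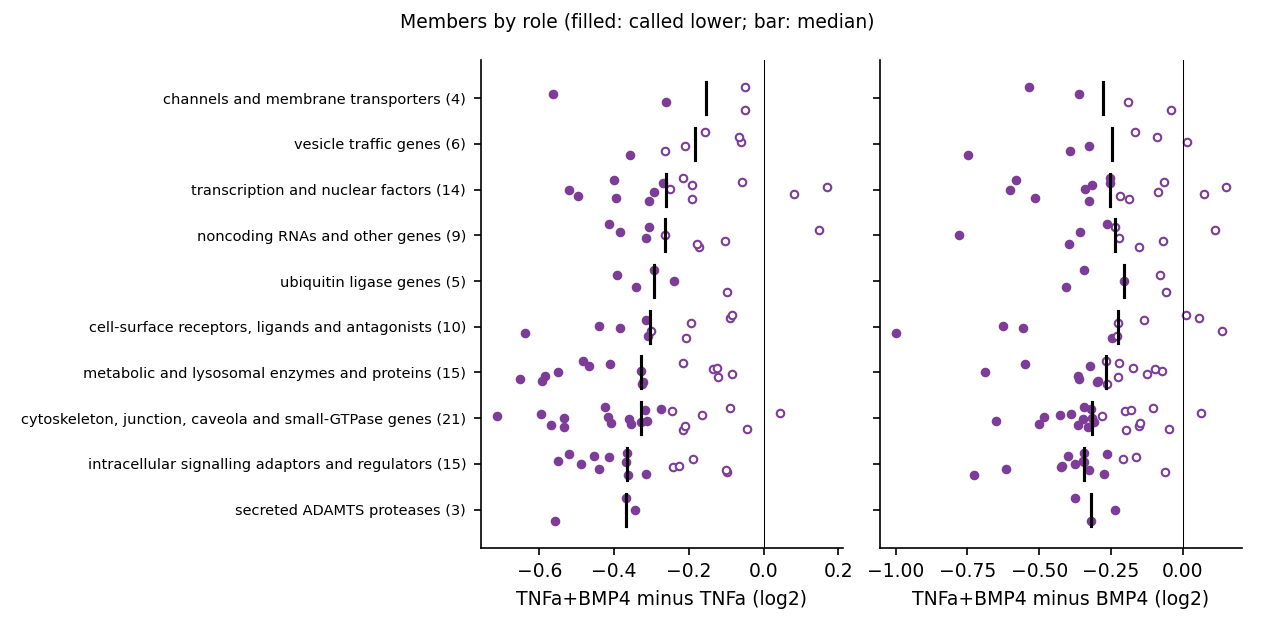
Log2 difference of TNFa+BMP4 from TNFa (left) and from BMP4 (right) for each gene of the set, 1 point per gene, by role with the number of genes; filled points were lower at a limma adjusted p under 0.05, and bars are medians. Filled points number 14 and 12 of 21 in the cytoskeleton group, 10 and 12 of 15 in the signalling group, and 1 and 3 of 6 in the vesicle traffic group.

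In the median over the set, the TNFa+BMP4 difference from untreated lay close to the sum of the single-factor differences. Single genes departed from the sum in both directions. The median sum was -0.73, against a median of -0.67 with both factors. The gap between them had a median of 0.07 (range -0.30 to 0.43), 48 genes lay within 0.1 of the sum, 77 lay above it and 25 below. Erbb3 was farthest below, at -0.30, followed by genes such as Nfia (-0.16) and Notch1 (-0.15). Ppih and Lockd were farthest above, at 0.43 each, and Hid1, with a TNFa+BMP4 difference of -1.03, lay 0.37 above. These gaps are given without a test, because the chosen libraries enter both sides. A selection for low single-factor values and high untreated values also makes the sum more negative.

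**Figure D5:**
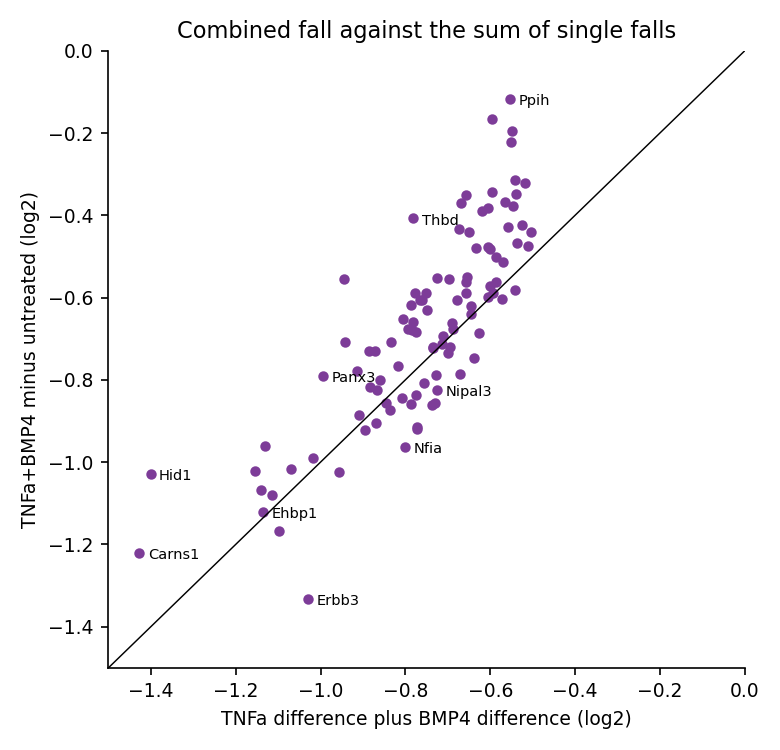
Sum of the TNFa and BMP4 differences from untreated (horizontal axis) against the TNFa+BMP4 difference from untreated (vertical axis), both log2, for the 102 genes. The gap from the line of equality runs from -0.30 for Erbb3 to 0.43 for Ppih and Lockd.

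At the edge of the rule, Cln6, Epas1 and 4933431E20Rik were the genes just inside, with TNFa and BMP4 differences of -0.36 and -0.25, -0.25 and -0.25, and -0.25 and -0.27. Tef and Clec11a were among the nearest outside, at -0.44 and -0.25, and -0.30 and -0.25, where the value nearer 0 rounds to -0.25 but fell short of the limit before rounding. Slc25a27, Slc27a3, Slc41a3 and Slc9a3r2 met the values and were left out by symbol. Genes at lower levels move less on the deposited scale: the slope of deposited TNFa differences on the authors' deposited fold changes was 0.55 where the mean lay from 6 to 8 (45 genes of the set), 0.80 from 8 to 10 (44) and 0.92 above 10 (13). Among the 57 genes with a mean of at least 8, 43 were lower in each comparison, a count given without its share over all genes at that level. Of all tested genes with a mean of at least 6, 6.35% were lower than TNFa and 7.91% lower than BMP4.

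The gene lists around the set held few of its members, and their calls are given beside the shares over all tested genes, which were 6.2% lower and 5.47% higher than TNFa, and 7.41% lower and 8.78% higher than BMP4. Of 20 tested FoxO-type genes, 2 belonged to the set (Txnip and Pik3ip1); 6 (30.0%) were lower and 2 (10.0%) higher than TNFa, and 7 (35.0%) were lower and 3 (15.0%) higher than BMP4. Of 22 receptor kinases and partners, only Erbb3 belonged; 6 (27.3%) were lower and 4 (18.2%) higher than TNFa, and 8 (36.4%) were lower and 5 (22.7%) higher than BMP4. Calls in both directions in these lists were above the shares over all genes, without a test of the difference.

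The junction list (27 tested, Plekha7 in the set) gave 4 lower (14.8%) and 0 higher than TNFa, and 6 lower (22.2%) and 4 higher (14.8%) than BMP4. The vesicle and motor list (29 tested, with Ehbp1, Rab3d and Rab27b) gave 7 lower (24.1%) and 2 higher (6.9%) than TNFa, and 5 lower (17.2%) and 1 higher (3.45%) than BMP4. The cAMP and inositol list (25 tested, with Prkar2b) gave 6 lower (24.0%) in each comparison, with 1 higher than TNFa (4.0%) and 2 higher than BMP4 (8.0%). The glycan and lipid enzyme list (32 tested, with Faah) gave 9 lower (28.1%) and 4 higher (12.5%) than TNFa, and 6 lower (18.8%) and 3 higher (9.38%) than BMP4.

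Other lists lay near or below the shares over all genes in some directions. The ubiquitin adaptor list (69 tested, with Asb1, Fbxl20 and Fbxo10) gave 7 lower (10.1%) and 3 higher (4.35%) than TNFa, and 4 lower (5.8%) and 5 higher (7.25%) than BMP4. Of 324 zinc-finger genes, Zfp395 belonged; 7 (2.16%) were lower and 8 (2.47%) higher than TNFa, and 22 (6.79%) were lower and 8 (2.47%) higher than BMP4. No gene of the circadian, hedgehog and cilium or homeobox lists belonged to the set. The circadian list (16 tested) gave 0 lower and 3 higher than TNFa, and 1 lower and 1 higher than BMP4; the hedgehog and cilium list (27 tested) gave 0 lower and 2 higher, then 6 lower (22.2%) and 0 higher. The homeobox list (34 tested) gave 4 lower (11.8%) and 6 higher (17.6%) than TNFa, and 13 lower (38.2%) and 1 higher (2.94%) than BMP4.

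The set was spread over 20 chromosomes, with 5 genes on X, and held 98 protein-coding and 4 noncoding genes. Its median exonic length was 4096 bases against 3055 in the other genes at or above the level, its median genomic span 34667 against 22725 bases, and its median mean log2 value 8.27 against 9.09; these are descriptions without a test. In 13 genes an opposite-strand entry whose mean log2 value reached 4 overlapped, among them Lrrtm2 within Ctnna1, Notch1 with 0610009E02Rik, Fbxo10 with Polr1e, Hexdc with Cybc1, Chrd with Thpo, and Tmod1 with Tstd2, and without strand their reads cannot be told apart where exons overlap. Each gene's profile of 4 group means, centred on its own mean, was compared with the median profile of the set. The nearest genes outside the set were Ctdspl (distance 0.093), Slc27a3 (0.101), Klf12 (0.102), Btnl5-ps (0.108) and Ebf1 (0.109).

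RefSeq promoter windows of 300 bases matched 75 of the 102 genes and 18631 genes in all. The NF-kB consensus decamer of the immunoglobulin kappa enhancer was found on either strand in 1.33% of the set (1 gene, Lpar2), 0.21% of other genes at the level and 0.16% of all genes; a looser form, which contains it and keeps only its GGG and CC ends with 5 free bases between, was in 69.3%, 70.3% and 57.0%. The GC-rich Smad motif GGCGCC was in 21.3%, 23.6% and 15.5%, the Smad box CAGACA in 16%, 14.6% and 18.8%, and the palindrome GTCTAGAC in 0, 0.22% and 0.21%. The forkhead motif TGTTTAC was in 2.67%, 2.33% and 3.01%, the AP-1 motif TGANTCA in 5.33%, 4.05% and 7.34%, the E-box CACGTG in 12.0%, 10.7% and 8.14%, and CCAAT in 32.0%, 39.3% and 39.0%. A match is a run of letters in these windows, and the shares are given without a test.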

How the data were processed

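PolyA RNA from 12 MC3T3-E1 libraries was sequenced as 150 bp paired-end reads. Trim Galore, HISAT2 and HOMER on mm10 are listed, without versions, per the submitters' processing notes. Reads were counted over exons of 1 transcript per gene, and batch was a factor in the authors' comparisons, per the file headers. The 12 library columns are deposited as log2 values whose transformation is not named, with no batch adjustment. The authors' log2 fold change, p-value and adjusted p-value per pair of groups, and the transcript length, are deposited in the same table. The word p65 in the titles of TNFa libraries is not explained by the labels.

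The file held no counts, so the log2 values of 11765 genes with a mean of at least 4 (of 17701 not listed at 0 throughout) entered a limma fit (version 3.58.1, R 4.3.3) with 4 groups, an additive batch term and a mean-variance trend. P-values were adjusted by Benjamini-Hochberg within each comparison, with a threshold of 0.05, and errors are SEs. All 102 genes were among those tested. The fit was tested on simulated data. The depth per gene is not known from log2 values, so no counting intervals are given.

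The genes and lists were chosen with earlier results of these data known. Genes named were those with the lowest mean single-factor difference, the extreme differences of TNFa+BMP4 from the mean of the single factors, members of the fixed lists, the genes at the threshold, and those earlier results had named. Others (such as Chrd, Cavin2, the ADAMTS genes and Panx3) and the grouping by role were chosen after their values were seen. Mtus1, Bicd1, Mgat3, Trerf1 and Sft2d2, named earlier, did not meet the rule. Alternatives were other levels, scalings, moderation, batch handling, a replicate block, stricter rules and leaving out each library. Some genes and lists are not reported here.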

Additional observations from a re-analysis of the deposited data

How the results depend on the processing

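No result reversed under the alternatives run. The 60 genes lower than TNFa and 58 lower than BMP4 became 6 and 8 without a batch term, over the same 102 genes. Without that term 39 and 82 of all 11765 tested genes were lower. Of the 20 genes that met a stricter difference of -0.35, 17 were lower in each comparison, with a median of -0.37 against BMP4. Of all tested genes, 6.2% were lower than TNFa and 7.41% lower than BMP4. Raising the level to 8 left 57 genes, with a median of -0.33 against BMP4. In the authors' deposited table the medians were -0.39 and -0.37. Among all tested genes, the 1373 called against TNFa became 906 with no minimum level and 105 without a batch term, and the 1905 called against BMP4 became 345 without a batch term; the cause was not tested. Batch 2 alone called 1 of the set higher than BMP4 (Lpar2).

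Leaving out each library gave 44 to 64 genes lower than TNFa and 38 to 63 lower than BMP4, 0 higher in either, medians of -0.33 to -0.26 and -0.32 to -0.24, and 752 to 1726 and 1320 to 2094 calls over all genes; the 752 came without TNFa replicate 1, and the calls were also under 1373 by over 1.5 times without TNFa replicate 2 (909) and TNFa+BMP4 replicate 1 (800). Quantile normalization gave 60 and 62 lower genes, centring on medians 60 and 65, no trend 61 and 55, robust moderation 61 and 56, and the authors' adjusted p 53 and 50.

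The replicate block gave 60 genes lower than TNFa and 57 lower than BMP4. The numbers do not pair samples beyond the batch: the correlation of replicate 2 minus replicate 3 differences between groups was 0.02 to 0.16. Differences of genes at low levels are compressed on the deposited scale, which limits what can be detected there.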
